A study of Caenorhabditis elegans with 6 samples.

Results

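NHR-25 is a nuclear receptor of the NR5 family, whose members bind DNA as single molecules and include FTZ-F1 in flies and SF-1 and LRH-1 in mammals. In Caenorhabditis elegans it is known for its part in epidermal development and molting. The autosomes of this worm have a middle section of low recombination, rich in conserved and broadly used genes, flanked by arms with more recombination, more repeats and more heterochromatin. Chromosome V is known for the large families of chemoreceptor genes on its arms.

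The regions described here are the binding sites of tagged NHR-25 on the arms of chromosome V. They are all entries of the study's combined peak list on that chromosome with a midpoint below 5.90 Mb (left arm) or above 16.55 Mb (right arm) in the coordinates of WormBase WS220. This position rule took 282 of the 6029 combined sites, 198 on the left arm and 84 on the right arm. The centre of the chromosome held 709 sites and served as the nearest comparison. The rule itself uses position and no peak value, but the boundaries and comparisons were chosen with earlier results of these data known.

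The sites came from chromatin immunoprecipitation followed by sequencing (ChIP-seq) of hermaphrodite L2 larvae. There were 3 ChIP samples, collected with antibodies against GFP, and 3 input samples of the same chromatin, which were not analysed here. Every sample was of the strain OP33, an unc119(ed3) mutant with the bombarded transgene wgIs33, which holds unc119 and nhr-25 tagged with TY1, EGFP and FLAG. The worms ate HB101 bacteria at 20 °C. They were crosslinked whole in 2% formaldehyde, so the sites of all their cell types are pooled.

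Each list orders its peaks by a number the authors gave, with 1 for the strongest, and gives each peak a −log10 value of an estimated false discovery rate (FDR). That value has an upper limit shared by many peaks, 3.960 in the combined list and 3.929, 3.726 and 3.917 in replicates 1, 2 and 3. The replicate lists held 30000, 29241 and 30000 peaks and their weakest peaks had an estimated FDR of 0.843, 0.990 and 0.888. They were therefore used in 2 forms, whole and reduced to their first 6029 peaks, the length of the combined list. The labels do not say that the replicates were separate cultures, so their spread may be technical.

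NHR-25 sites were sparse on the arms. The arms carried 27.5 sites per Mb and the centre 66.6 sites per Mb, a ratio of 0.412 (exact 95% interval 0.358 to 0.474; exact two-sided binomial p = 6.8e-40). They held 28.5% of the sites of chromosome V on 49.1% of its length. In the first 6029 peaks of replicates 1, 2 and 3 the arms had 28.1, 26.9 and 27.4 peaks per Mb, against 66.0, 67.6 and 66.1 in the centre. Every replicate thus placed the arms far below the centre, and the ratio was 0.412 ± 0.0144 (SD, n = 3). With all 3 replicates in 1 direction, an exact sign-flip test over them gives p = 0.25, the smallest it allows.

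The left arm was the denser of the arms. It had 33.6 sites per Mb and the right arm 19.2, a ratio of 1.75 (exact 95% interval 1.35 to 2.28; exact two-sided binomial p = 1.3e-05). The left arm had 33.2, 32.2 and 34.1 first peaks per Mb in replicates 1, 2 and 3, and the right arm had 21.3, 19.7 and 18.3. The arms did not overlap, and the ratio was 1.69 ± 0.156 (SD, n = 3), higher on the left in 3 of 3 replicates (exact sign-flip p = 0.25, the smallest possible). The binomial tests count sites as independent, although neighbouring sites can belong to 1 stretch of signal.

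Part of the difference between the arms lay in the innermost stretch of the left arm. Between 4 Mb from the end and the boundary at 5.90 Mb the left arm held 92 of its 198 sites (46.5%), or 48.4 per Mb. In the replicates this stretch had 48.4 ± 1.90 first peaks per Mb (SD, n = 3). When the left arm was cut to the 4.37 Mb of the right arm, both counted from their ends, the ratio was 1.38 (exact binomial p = 0.0281).

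Counted inward from the chromosome ends, the left arm had more sites near the tip, fewer in its middle and more again towards the centre. The right arm had fewer sites in each 1-Mb bin than in the one before, down to 8 in its inner part. On the left arm successive 1-Mb bins held 40, 27, 17, 22 and 50 sites, and the last 0.900 Mb held 42. On the right arm they held 31, 25, 14 and 8 sites, and the last 0.373 Mb held 6, or 16.1 per Mb. All 6 lay between 16776737 and 16815214, so the end of the right arm towards the centre rests on 1 group of sites. The stretch 2 to 4 Mb from either end, called the dip here, had 19.5 sites per Mb on the left and 11 on the right. On the right arm it reaches almost to the boundary. In the replicates the dip had 18.2 ± 1.61 first peaks per Mb on the left and 11.3 ± 1.26 on the right (SD, n = 3). The outer 2 Mb had 33.7 ± 2.57 and 27.7 ± 1.61, so the dip was outside the spread of the replicates on either arm.

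**Figure D1:**
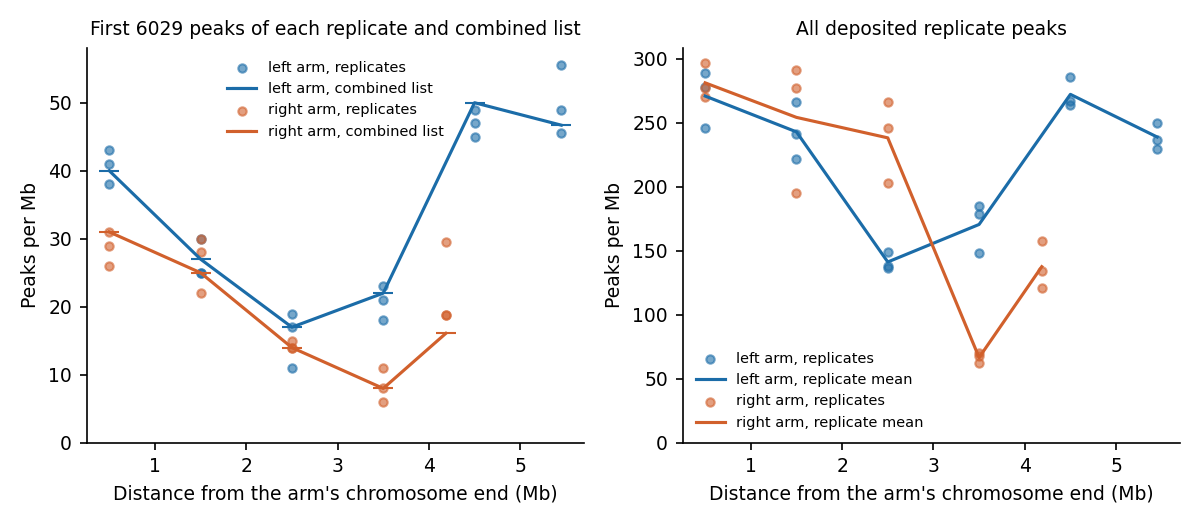
Peaks per Mb (vertical axes) by distance from the arm's own chromosome end in Mb (horizontal axes), in 1-Mb bins, for the left and right arm; the left panel shows the combined list as lines and the first 6029 peaks of each replicate as points, the right panel all deposited replicate peaks with their mean as lines. In the combined list both arms are low 2 to 4 Mb from the end, and the left arm rises to 50 sites in the bin from 4 to 5 Mb. With all deposited peaks the right arm is low at 3 to 4 Mb but not at 2 to 3 Mb.

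Within the replicate lists the deficit of the arms was largest among the strongest peaks. Each replicate list was divided into classes of 5000 peaks by the authors' number. Over the first 4 classes the mean density of either arm was higher in each class than in the one before, and that of the centre was lower. Among the peaks numbered 1 to 5000 the left arm had 26.9 ± 1.57 peaks per Mb, the right arm 15.4 ± 0.866 and the centre 56.0 ± 1.63 (SD, n = 3). Among those numbered 10001 to 15000 the left arm had 37.9 ± 1.04, the right arm 32.8 ± 2.84 and the centre 40 ± 2.68. The combined list, which ends at number 6029, showed no steady trend. Its ratio of arms to centre was 0.324 at numbers 1 to 1000, 0.534 at 3001 to 4000 and 0.365 at 5001 to 6029.

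Further down the replicate lists the arms were the denser parts. Among peaks numbered 20001 to 25000 the left arm had 44.4 ± 2.13 peaks per Mb, the right arm 45.4 ± 0.866 and the centre 37.0 ± 2.92 (SD, n = 3). The ratio of arms to centre was 0.394 ± 0.0239 in the first class and 1.22 ± 0.129 in this one, with no overlap between the replicates (0.367 to 0.413, and 1.08 to 1.33). The last class, from 25001 to the end of each list, gave 1.38 ± 0.291. In replicate 2, whose list is shorter, it gave 1.07.

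The excess of the left arm over the right also ended among weak peaks. Their ratio was 1.75 ± 0.181 in the first class, 1.27 ± 0.200 in the second and 0.976 ± 0.0294 among peaks 20001 to 25000 (SD, n = 3). Over whole lists it was 1.09, 1.15 and 1.05 in replicates 1, 2 and 3 (exact binomial p = 0.0550, 0.00226 and 0.272). The ratio of arms to centre over whole lists was 0.904, 0.751 and 0.913, still below 1 in each (exact binomial p = 4.1e-04, 4.2e-23 and 0.00156). The −log10 FDR was 0.196 at number 21352 of replicate 1, 0.152 at 20503 of replicate 2 and 0.124 at 23842 of replicate 3. The lists ended at an estimated FDR of 0.843, 0.990 and 0.888. By these values many of the weak peaks may be false, and how many was not tested.

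**Figure D2:**
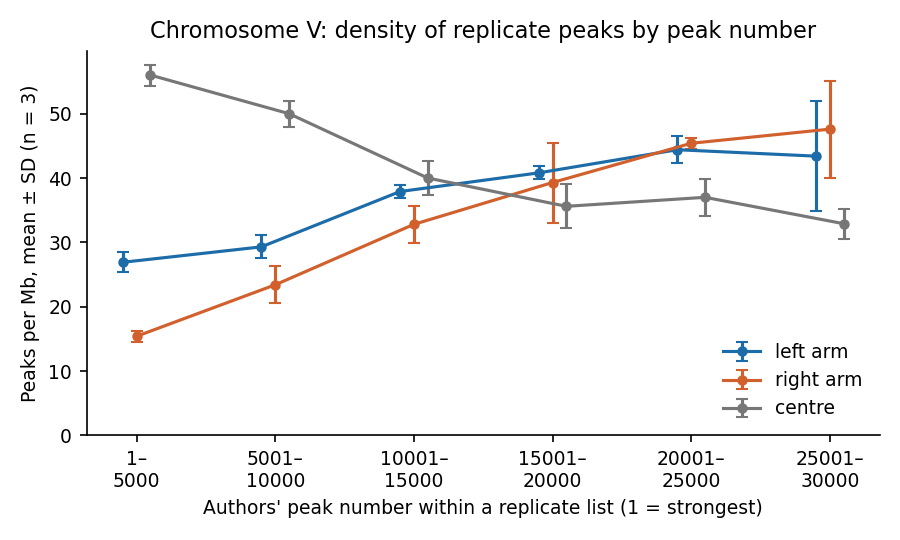
Density of replicate peaks in peaks per Mb (vertical axis; mean and SD of 3 replicates) by the authors' peak number in classes of 5000 (horizontal axis; 1 is the strongest) for the left arm, the right arm and the centre. Over the first 4 classes the centre is lower and each arm higher from class to class, and from 15001 on the means of both arms lie above that of the centre.

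With all deposited peaks the dip was still present on the left arm, while on the right arm it covered a single bin. The stretch 2 to 4 Mb from the left end had 156 ± 11.4 peaks per Mb, and the outer 2 Mb had 257 ± 21.9 (SD, n = 3). On the right arm the bin 3 to 4 Mb from the end held 70, 62 and 68 peaks in replicates 1, 2 and 3. That bin contains the whole of the longest gap of the arm, from 16965967 to 17857834. The bin 2 to 3 Mb from the right end had 266, 203 and 246 peaks, close to the 277, 195 and 291 of the bin from 1 to 2 Mb.

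Chromosome V shared the turn with the other chromosomes but had the lowest ratio of outer to central density among strong peaks. Here each chromosome was divided into its outer and its central 50%, since the arm boundaries apply to V alone. Among the first 5000 peaks the density of the outer parts over that of the central part was 0.345 ± 0.0134 on V (range 0.330 to 0.357). Over the other autosomes its mean ran between 0.521 on II and 0.633 on IV, and it was 0.818 on X (n = 3 each). The lowest single value on any of these was 0.489, above the highest of V. From number 25001 on the ratio was 1.28 ± 0.236 on V, and between 1.19 on II and 1.44 on III on the others (SD, n = 3). The replicates measure all chromosomes in the same libraries, and these values carry no test.

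The strongest arm sites were found by every replicate at nearly the same base. On the left arm the first was the interval from 5844378 to 5844834, number 119 in the combined list and 90, 146 and 150 in replicates 1, 2 and 3. Next came 3391041 to 3391384, number 200, with 167, 184 and 338 in the replicates. The third was 381191 to 381625, number 261, with 447, 177 and 246. These stand at the inner edge, in the middle and near the tip of the arm. Of the 10 strongest left sites, 7 lay more than 4 Mb from the end, in the stretch that held 46.5% of the sites of the arm.

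The interval from 5832806 to 5833296 was listed for 2 combined peaks, 275 and 2446, and its best replicate peaks were 218, 250 and 431. The site from 1151325 to 1151695 was number 277, and 344, 215 and 434 in the replicates. The site from 4918655 to 4919013 was number 332 but differed more, at 1215, 163 and 256. The other 4 of the first 10 on this arm were 5684607 to 5684876, 4143186 to 4143428, 5049322 to 5049762 and 4908594 to 4908883, with combined numbers between 293 and 424. All 10 were at the upper limit of the value in every replicate, and 9 of them reached the first 1000 everywhere. The replicate midpoints differed from the combined ones by at most 91.0 bp.

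The right arm held the strongest site of both arms, from 19529147 to 19529550. It was number 63 in the combined list and 43, 63 and 85 in replicates 1, 2 and 3. Its neighbour from 19522701 to 19523086 was number 219, with 190, 273 and 346 in the replicates. The site from 18967665 to 18967963 was number 161, with 111, 225 and 339. All 3 sites thus stood no lower than number 346 in any replicate.

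The site from 20778184 to 20778542 was number 231, with 474, 187 and 235, and the site from 17951220 to 17951554 was number 288, with 200, 521 and 292. After these 5 the right arm had a step, since the next site, from 20422784 to 20423031, was number 699. The tenth, from 20692917 to 20693192, was number 1065 and differed most, with 3295, 847 and 446. All 10 were at the upper limit in every replicate, and 6 of them were within the first 1000 of every replicate. Their replicate midpoints differed from the combined ones by at most 112 bp.

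**Figure D3:**
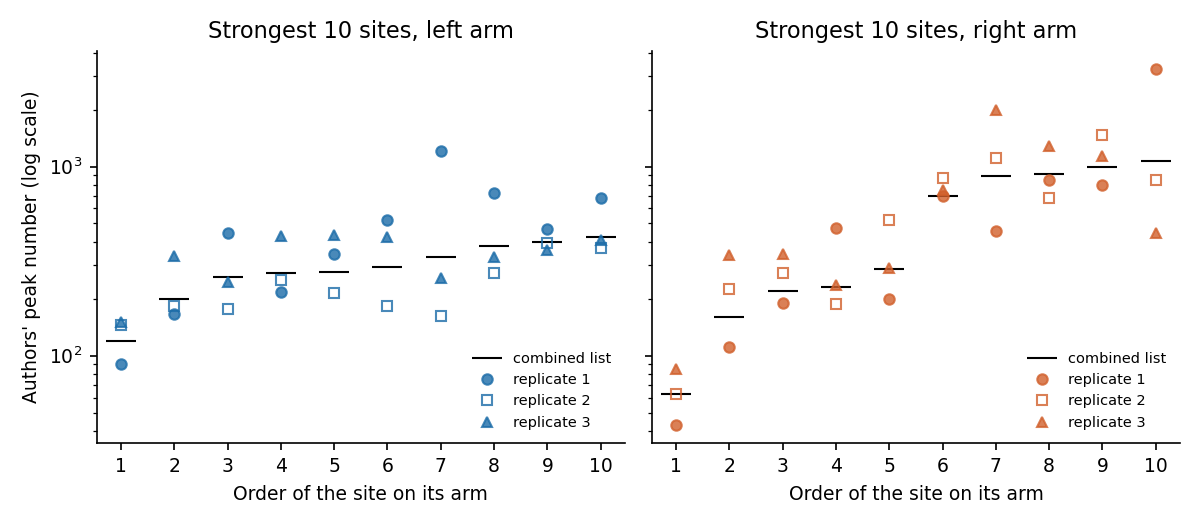
Authors' peak number on a log scale (vertical axis; lower is stronger) of the 10 strongest combined sites of each arm, in the order of the combined list (horizontal axis); bars mark the combined list, and circles, squares and triangles replicates 1, 2 and 3. The combined numbers of the left arm stay at or below 424, while the right arm has 1 site at 63 and steps up to 699 at its sixth site.

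No test of strength between arm sites and centre sites passed, and the measures differed in direction. At the upper limit of the combined value were 220 of 282 arm sites (78.0%, exact 95% interval 72.7 to 82.7%), against 531 of 709 in the centre (74.9%) and 75.4% of all combined sites. The difference of 3.12 percentage points did not pass (Fisher's exact test, two-sided, p = 0.325), and it was -0.639 points for a place among the first 3014 peaks (Fisher's exact p = 0.888). The value is at its limit for most sites, so 2 narrower measures were added after seeing the data. Among the first 1000 peaks were 12.4% of arm sites and 15.8% of centre sites, a difference of -3.39 points (Fisher's exact p = 0.198). At the upper limit in every replicate were 31.2% and 35.8%, a difference of -4.62 points (Fisher's exact p = 0.183). For this measure the share of all combined sites was not counted. The median peak number was 3121 on the arms and 3035 in the centre.

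Between the arms, 161 of 198 left sites (81.3%) and 59 of 84 right sites (70.2%) were at the upper limit (Fisher's exact p = 0.0584). The median peak number was 2988 on the left and 3493.5 on the right. Among the first 1000 peaks were 26 left sites (13.1%) and 9 right sites (10.7%), against 15.8% of centre sites. The difference of 11.1 points at the upper limit missed the threshold of 0.05, and for a place in the first 3014 peaks it was 4.08 points (Fisher's exact p = 0.603).

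Nearly every arm site was present in every replicate when whole lists were used. Of the 282 sites, 269 (95.4%) overlapped a peak by at least 1 bp in each replicate, against 669 of 709 (94.4%) in the centre and 96.0% of all combined sites. Replicates 1, 2 and 3 held 281, 276 and 275 of the 282, and none was absent from all of them. Some of these overlaps were with very weak peaks. Examples are number 26594 of replicate 2, with a −log10 FDR of 0.037, and number 26455 of replicate 3, with 0.089. With the first 6029 peaks of each replicate, 154 arm sites (54.6%, exact 95% interval 48.6 to 60.5%) were in all 3, against 401 centre sites (56.6%) and 56.9% of all combined sites (arms against centre, Fisher's exact p = 0.620). The combined list was made from the same ChIP samples, so these shares are no independent replication.

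Presence in the first peaks was tied to the peak number on the arms and in the centre. The combined numbers come from the same ChIP samples and every list ends at 6029, so this tie was largely set in advance. All 35 arm sites numbered up to 1000 and all 44 numbered 1001 to 2000 were in the first peaks of every replicate, against 112 of 112 and 112 of 115 in the centre. The share was 83.1% of 59 arm sites at 2001 to 3000, against 77.0% of 126 in the centre. At 3001 to 4000 the order was reversed, with 32.7% of 52 arm sites and 46.5% of 101 centre sites. The exact intervals overlapped in both classes. On the arms the share was 4.65% of 43 at 5001 to 6029, where the centre had 10.7% of 122. With whole lists the shares in that class were 83.7% on the arms and 83.6% in the centre.

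**Figure D4:**
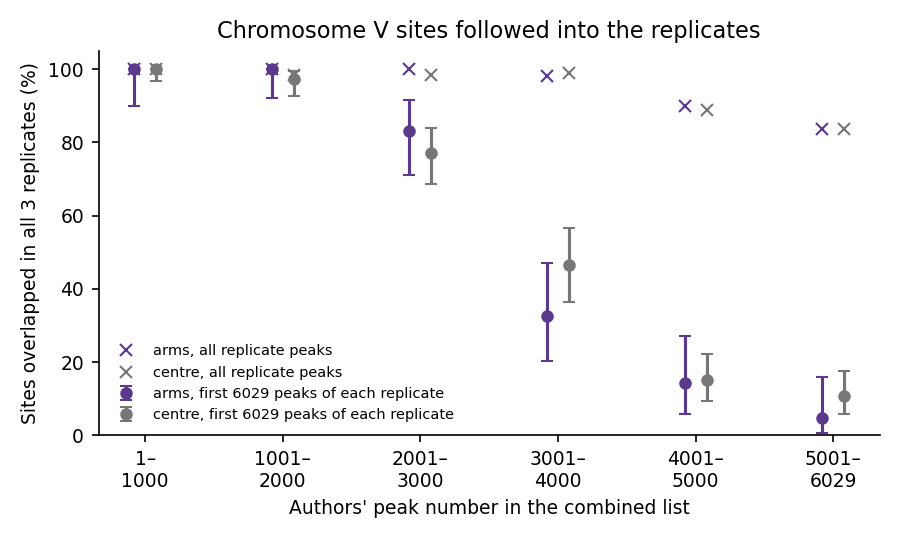
Share of combined sites overlapped in all 3 replicates in percent (vertical axis) by the authors' peak number in the combined list (horizontal axis), for the arms and the centre; dots use the first 6029 peaks of each replicate with exact 95% intervals, crosses all replicate peaks. Arms and centre both fall, to 4.65 and 10.7% in the last class. They are farthest apart at 3001 to 4000, at 32.7 and 46.5%, and their intervals overlap in every class.

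The left and right arm did not differ detectably in presence. In the first peaks of every replicate were 111 of 198 left sites (56.1%) and 43 of 84 right sites (51.2%; Fisher's exact p = 0.514). With whole lists the numbers were 192 (97.0%) and 77 (91.7%; Fisher's exact p = 0.0648). On the left arm 5 sites lacked a peak in replicate 2, and 1 each in replicates 1 and 3. On the right arm 6 lacked one in replicate 3 and 1 in replicate 2.

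Only 1 arm site was in a single replicate, from 4844589 to 4845028, which was number 2141 in replicate 1 and had no peak in the others. The site from 2126650 to 2127089 overlapped no peak of replicate 2, but the combined site from 2127082 to 2127303, which overlaps it, had number 2477 there. Both overlapped the same best peaks of the other replicates, number 1101 in replicate 1 and 5143 in replicate 3. The outermost site of the right arm, from 20903736 to 20903954, was number 1857 and 1457 in replicates 1 and 3 but 17407 in replicate 2. On the left arm the site from 5412737 to 5413176 was number 4071, 26594 and 1808. These sites, apart from the outermost, were picked after their values were seen, as examples of uneven sites. On the right arm the sites from 18637485 to 18637924 and from 16777533 to 16777972 were nearly as uneven. Their highest replicate number over their lowest was 11.4 and 11.3. It was 11.9 for the outermost right site and 14.7 for the left site from 5412737 to 5413176.

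The order of the arm sites was only partly shared between replicates, and less so than in the centre in each pair. Across the 269 arm sites found in every whole list, Spearman's rho of the peak number reached 0.537 between replicates 1 and 2. It was 0.637 between 1 and 3, and 0.630 between replicates 2 and 3. The centre had 0.675, 0.695 and 0.651 for the same pairs, and the right arm had 0.409 between replicates 1 and 2. The mean rho of the 3 pairs was 0.636 over 192 left sites, 0.524 over 77 right sites and 0.674 over 669 centre sites. These describe agreement across sites that share libraries and that were listed for the combined ChIP signal. Overlapping combined sites can share the same replicate peaks and then enter more than once. The highest number of a site over its lowest was at most 2 for 82 left sites (42.7%) and 26 right sites (33.8%). This was counted for the arms only, so these shares do not bear on the comparison with the centre.

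The share of replicate peaks matched in another replicate was lower on the arms than in the centre in 6 of 6 comparisons. Of the first peaks of 1 replicate on the arms, between 64.4 and 70.1% overlapped a first peak of another, against 69.9 to 72.9% in the centre. Arms minus centre was -7.76 to -1.21 percentage points, over 3 pairs of replicates taken in both directions, and was not tested. The left arm had 66.8 to 70.5% and the right arm 55.9 to 70.0%. A combined site was overlapped by 78.4 ± 1.10% of the first peaks on the arms and 79.6 ± 0.477% in the centre (SD, n = 3).

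Peaks at the upper limit in every replicate were represented in the combined list, all of those on the arms and most of those in the centre. Replicate 1 had 62 such peaks on the left arm and 21 on the right, each of them overlapped by a combined site. In the centre 5 of 250 were not, so arms and centre were alike in this. The combined list was made from the same ChIP samples, so such peaks were likely to be in it.

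Neighbouring regions lay farther apart on the arms. Overlapping or touching sites were joined, which left 190 regions on the left arm, 83 on the right and 661 in the centre. The median gap between neighbours was 10.5 kb on the left, 12.9 kb on the right and 3.61 kb in the centre. In the first peaks of the replicates it was 11.2 ± 0.873, 13.5 ± 3.40 and 4.25 ± 0.228 kb (SD, n = 3). The arms differed from each other by less than that spread, and both lay above the centre in every replicate.

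A smaller share of arm regions than of centre regions had a close neighbour. Fewer sites per Mb bring longer gaps, fewer close neighbours and more empty bins, so these are not results separate from density. Spacing beyond density was not tested. Another region lay within 5 kb of 106 left regions (55.8%) and 36 right regions (43.4%), against 505 centre regions (76.4%). No arm region stood at least 100 kb from its neighbours on both sides, and only 2 of 661 centre regions did (0.303%). In the replicates' first peaks the right arm had 1 such region of 90 in replicate 1, 2 of 81 in replicate 2 and 0 of 77 in replicate 3. In the combined list 13 of 59 bins of 100 kb on the left arm (22.0%) and 20 of 43 on the right (46.5%) were empty, against 8 of 106 in the centre (7.55%). In the replicates' first peaks 20.3 to 23.7% of left bins, 39.5 to 51.2% of right bins and 5.66 to 6.60% of centre bins were empty.

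**Figure D5:**
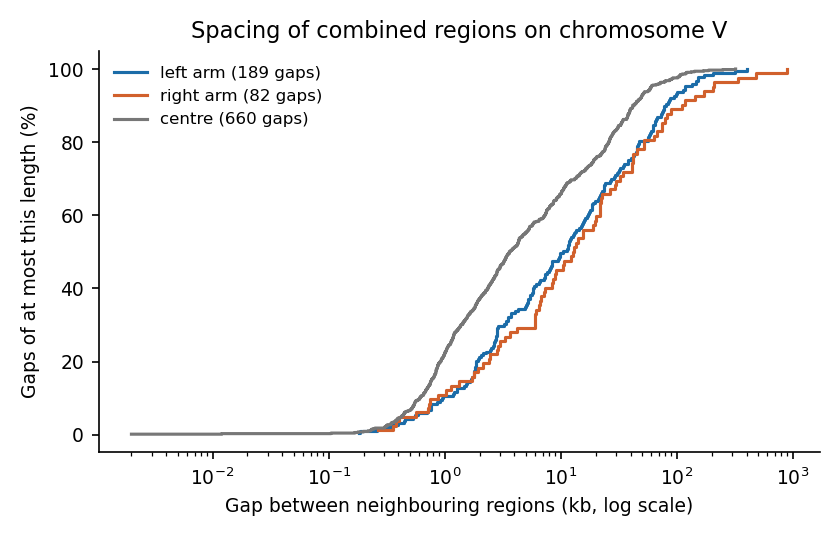
Share of gaps in percent (vertical axis, cumulative) at or below a given length in kb on a log scale (horizontal axis) between neighbouring combined regions of the left arm, the right arm and the centre. The curves of both arms lie to the right of the centre's, with medians of 10.5, 12.9 and 3.61 kb, and the longest gap of 892 kb is on the right arm.

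The densest 50-kb windows of the left arm held 10 regions each. The window from 4886974 to 4919013 had 11 sites, 7 at the upper limit, and 9, 9 and 8 regions in the first peaks of replicates 1, 2 and 3. The window from 5813323 to 5848400 had 12 sites, all at the upper limit, and 11, 11 and 8 regions in the replicates. It includes the strongest site of the arm and ends with the last site inside the boundary, from 5847961 to 5848400 (number 3744). The first site beyond the boundary lay from 5939465 to 5939904 (number 5061), 91.1 kb farther in, so the boundary does not divide this group.

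The densest windows of the right arm held fewer regions than those of the left. These windows, from 16776737 to 16815214 and from 19519531 to 19529550, held 6 regions each. The first of them had 8, 6 and 5 regions in replicates 1, 2 and 3. The other had 5, 7 and 7, packed into 10.0 kb with the strongest site of the arm at its end. The densest window of the centre, from 6221033 to 6267742, held 19. The innermost right site, from 16776737 to 16777176, was number 2145, and the last centre site before the boundary, from 16401603 to 16401828, was number 1363, 375 kb away.

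The longest empty stretches differed in how many weak peaks they held. The gap of 892 kb on the right arm, from 16965967 to 17857834, had 44.8, 40.4 and 39.2 peaks per Mb in the whole lists of replicates 1, 2 and 3, where the arm had 213, 182 and 217. The gap of 319 kb on the left arm, from 2281951 to 2600644, had 25.1, 50.2 and 34.5, where the arm had 232, 209 and 227. These stretches, defined by having no combined site, were thus also poor in peaks over the whole lists. Their peaks were not divided by strength.

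The gap of 400 kb from 2694707 to 3094391 held 72.6, 97.6 and 95.1 peaks per Mb, also below the left arm as a whole. The gap of 482 kb from 18087190 to 18569497 on the right arm had 151, 110 and 126, and the gap of 338 kb from 19666597 to 20004443 had 148, 127 and 181. The gap of 207 kb from 3772445 to 3979875 on the left arm had 130, 82.0 and 96.4. All 6 are the 3 longest of each arm, and each held at most 2 first peaks of any replicate. Reads that map to several places were not examined, so an effect of repeats on these gaps was not tested.

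The edge of the 892-kb gap carried the widest arm sites. The combined list has an interval of 1764 bp from 16963206 to 16964969 (number 4242) and another of 782 bp from 16959383 to 16960164 (number 5175). Replicate 2 gave 1 interval of 2531 bp to 2 of its peaks there, numbers 1511 and 1769, and an interval of 822 bp, number 1629. In replicates 1 and 3 the best peaks over the 1764-bp site were numbers 5288 and 9934, and all of them had the usual widths of 430 and 450 bp. Among the replicates, wide intervals were thus listed here by replicate 2 alone. Replicates 1 and 3 listed several peaks of the usual width across the same stretch. The narrow site beside it, from 16965698 to 16965966, was number 990 in the combined list and 800, 1468 and 1133 in the replicates.

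Width was otherwise tied to the peak number. Of the 282 arm sites 190 (67.4%) were exactly 440 bp wide, the commonest width of the list, and none of these was among the first 1000. The 85 narrower sites had a median number of 1358, and 31 were among the first 1000. The 7 wider ones had a median of 443. On the left arm the widest, 556 bp from 723827 to 724382, was number 443, and 532, 447 and 414 in the replicates. The centre showed the same pattern, with medians of 1124 for 211 narrower and 4075 for 469 sites of 440 bp.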

How the data were processed

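Peak lists of the 3 ChIP samples and 1 combined list were used. Per the file headers, coordinates are on WormBase WS220, and the source field names SPP and IDR (irreproducible discovery rate). The sources used here name no aligner, filter, control, IDR threshold or way of combining. The deposited value of each peak is a −log10 of an FDR estimate, a unit read from the values. The peak numbers that the authors gave gave the order within each list. Read counts are not in these files, so depth is unknown.

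Arms were cut at the stated boundaries by midpoint, and the length of chromosome V was taken as the last base any deposited peak reached, 20923026. Replicate lists were used whole and reduced to their first 6029 peaks. Sites were followed by an overlap of at least 1 bp, and a site's best overlapping peak gave its replicate number. Densities were compared by exact binomial tests against length and shares by Fisher's exact test, both two-sided with a threshold of 0.05, and intervals are exact (Clopper-Pearson, 95%) and cover counting error only. The named sites are the 10 lowest numbers of each arm, the outermost, boundary and widest sites, the 3 longest gaps and the densest 50-kb window of each arm, with the other windows and sites added later. Overlap and counting were tested on simulated intervals. Tools were Python 3.11.15, numpy 2.4.6, pandas 2.3.3 and scipy 1.17.1.

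The boundaries, sites and comparisons were chosen with earlier results of these data known. Peak number classes, stretches, width classes, empty bins and the comparison of outer parts between chromosomes were chosen after the data were seen. The gene table used here is on another assembly than the peaks, so no gene or sequence is given.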

Additional observations from a re-analysis of the deposited data

How the results depend on the processing

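Of 53 alternatives, 45 changed neither direction nor call, or stayed within the replicate SD. The ratio of left to right density ranged from 1.38 to 2.17 over the shortened left arm, shifted boundaries, joined regions, list parts and first peaks. It no longer passed with all peaks of replicates 1 and 3, at 1.09 (exact binomial p = 0.0550) and 1.05 (p = 0.272); the cause was not tested. The cut of the left arm to the length of the right and the use of the peaks after the first 3014 (1.61) were chosen after seeing the data. The ratio of arms to centre kept its direction in all 12 alternatives, from 0.397 in the first peaks of replicate 2 to 0.913 in all peaks of replicate 3. Leaving out each replicate in turn gave mean ratios of 1.60 to 1.75 for left to right and 0.406 to 0.420 for arms to centre.

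None of the differences in shares passed under any alternative, and 3 of the 4 turned in sign under at least 1. Arms minus centre in every replicate was 1.03 points with all deposited peaks, and -2.54 to -0.901 with 1 replicate left out. Arms minus centre at the upper limit was -0.639 points by the first 3014 peaks -0.348 with boundaries 0.5 Mb nearer the ends and, by measures added after seeing the data, -3.39 for the first 1000 peaks and -4.62 at the limit in every replicate. Left minus right in every replicate was -2.89 points with a reciprocal overlap of 50%, and 4.62 to 8.01 with 1 replicate left out. Left minus right at the upper limit kept its sign, at 2.42 to 9.52 points. The causes were not tested. Arms and centre, and left and right, were compared within each replicate. Between ChIP and input no paired analysis was possible because only ChIP lists were used. The tied upper limit and the unknown depth limit any ranking by strength.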
